A study of Mus musculus with 6 samples.

Results

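The glycolysis and hypoxia response genes examined here were 38 genes, taken by symbol from the 56980 genes of the deposited count table: 23 glucose and lactate transporters and glycolytic enzymes, and 15 subunits, regulators and targets of the hypoxia-inducible factors (HIF). They were measured by bulk RNA sequencing of monocytes sorted from mouse B16F10 tumours, a transplanted melanoma line, gated as CD11b+ Ly6Chi Ly6G- cells. All samples carried the wild-type genotype label. One group received lipid nanoparticles (LNP) with GFP mRNA (LNP-GFP, 3 libraries, the control) and the other LNP with mRNA of Gsdme, the gene of the pore-forming protein gasdermin E (LNP-Gsdme, 3 libraries). The sources used here give no dose, timing, age or sex of the animals. Whether each library stands for its own animal is not stated in the labels, so the p-values reflect sample-to-sample spread alone, possibly of technical origin. Values of a group are listed in the order of its libraries 1, 2 and 3.

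Glycolysis turns glucose into pyruvate, and lactate dehydrogenase turns pyruvate into lactate, which monocarboxylate transporters carry out of the cell. HIF-1 alpha and HIF-2 alpha (genes Hif1a and Epas1) are made continuously and, when oxygen is present, are hydroxylated by the prolyl hydroxylases of the Egln family and degraded. When oxygen is low they accumulate and, with ARNT, bind short DNA elements near glycolytic and other target genes, including Egln3, Bnip3 and Car9. Inflammatory stimuli also engage HIF-1 alpha and glycolysis in monocytes and macrophages. Much of the control of HIF acts on the protein, which RNA counts do not measure.

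The core of the HIF-binding element was looked for upstream of the members, in the 250 bases before each RefSeq gene start (GRCm38.p6). The core was read as ACGTG or GCGTG on either strand, so the palindrome CACGTG, also the E-box bound by MYC and MAX proteins, counts on both strands. RefSeq promoter entries matched 34 of the 38 members, and 32 of these had at least 1 core, the exceptions being Gpi1 and Tpi1. Bnip3l, Slc2a3, Ndrg1 and Epas1 had no entry. Of the 49 member promoters 83.7% held a core, beside 54% of the promoters of the tested genes and 38.6% of all promoters in the table. The median promoter held 14 CG dinucleotides among the members and 15 among tested genes. A core was present in 80% of the enzyme and transporter promoters and in 92.9% of those of HIF regulators and targets, whose median promoters held 14 and 20 CG dinucleotides. Of the 49 starts, 21 coincided with a start in the GENCODE annotation and 40 lay within 50 bases of one. Windows of 81 bases, written 5′ to 3′ on the gene's strand with the cores in capitals, are shown for the 2 members that passed the test (Slc16a1 and Mxi1), for the classical HIF-responsive enzyme genes Pgk1 and Ldha, and for the targets Ero1a and Car9. Mxi1 has 3 promoter entries, of which the first held no core, the others held 1 each and the second is shown. These matches describe letters in a window and not bound sites.
Slc16a1, chr3:104638492-104638572, plus strand: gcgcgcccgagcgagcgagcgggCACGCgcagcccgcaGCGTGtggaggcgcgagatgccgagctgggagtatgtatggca
Mxi1, chr19:53329309-53329389, plus strand: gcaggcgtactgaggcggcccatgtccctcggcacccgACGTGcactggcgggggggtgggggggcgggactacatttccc
Pgk1, chrX:106186931-106187011, plus strand: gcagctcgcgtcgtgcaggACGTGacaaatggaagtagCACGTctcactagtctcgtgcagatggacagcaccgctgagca
Ldha, chr7:46845723-46845803, plus strand: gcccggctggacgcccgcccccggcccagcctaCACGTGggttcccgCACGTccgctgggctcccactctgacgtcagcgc
Ero1a, chr14:45318593-45318673, minus strand: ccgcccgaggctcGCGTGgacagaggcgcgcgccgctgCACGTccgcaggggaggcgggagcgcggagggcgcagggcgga
Car9, chr4:43506945-43507025, plus strand: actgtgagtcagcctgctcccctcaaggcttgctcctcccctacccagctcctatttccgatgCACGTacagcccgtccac

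Few of these genes passed the test after LNP-Gsdme. Mxi1 rose and Slc16a1 fell, and the other 36 members did not pass the test. All 38 members passed the low-count filter, and the 2 called (5.26%) stand beside 11.6% of the 16010 genes tested, where 6.30% rose and 5.32% fell (edgeR quasi-likelihood test, called at a Benjamini-Hochberg adjusted p below 0.05 over all tested genes). At an unadjusted p below 0.05 the members' count was 9 (23.7%), beside 31.5% of tested genes. The members' median log2 fold change, LNP-Gsdme over LNP-GFP, was -0.12 and that of all tested genes -0.01, with 26 members below 0 (68.4%, beside 50.7% of tested genes). The 95% interval of the fold change lay within 1.5-fold in either direction for 24 members (63.2%, beside 39.7% of tested genes) and within 2-fold for 35 (92.1%, beside 68.7%), the exceptions being Adm, P4ha2 and Car9. The members held 1.111, 1.134 and 1.117% of counts in the LNP-GFP libraries and 1.104, 1.006 and 1.107% in the LNP-Gsdme libraries.

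**Figure D1:**
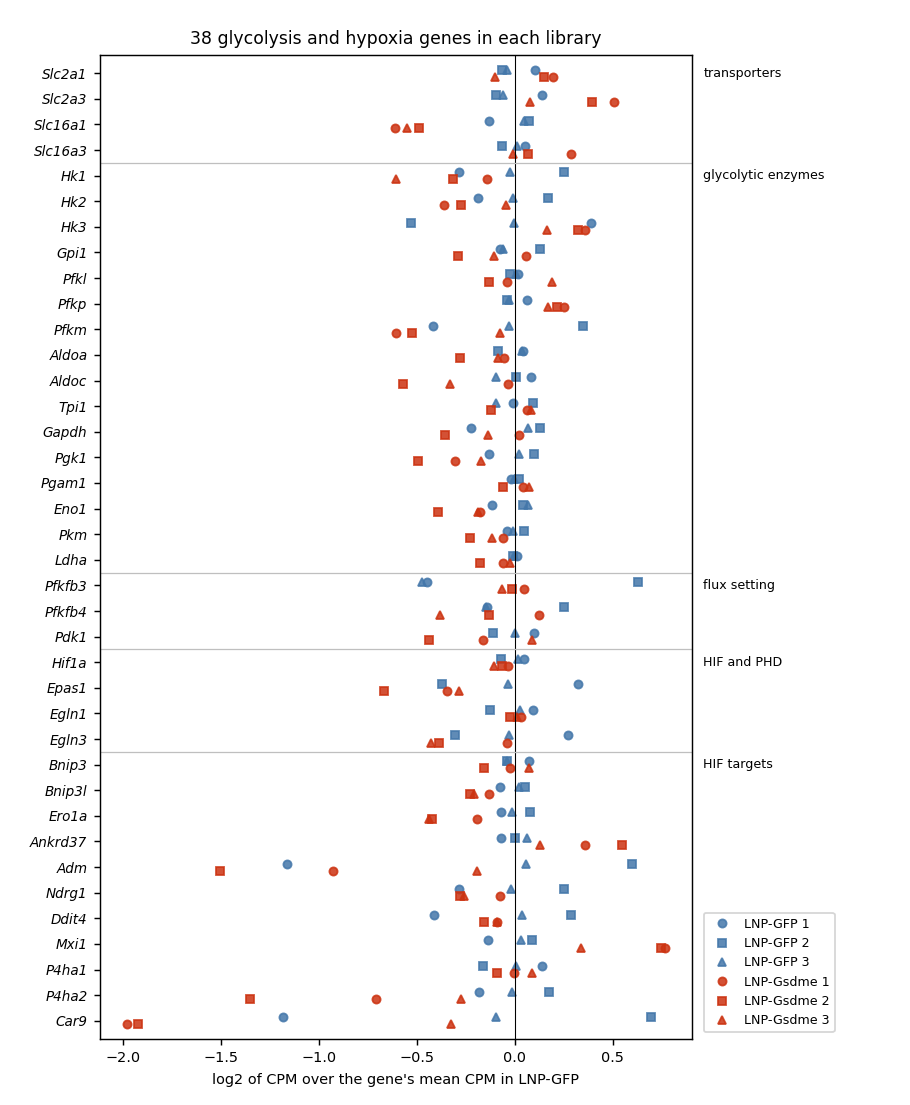
Log2 of the CPM (library-scaled counts) of each of the 38 members in each library over the member's mean CPM in the 3 LNP-GFP libraries, with blue points for LNP-GFP, red points for LNP-Gsdme and members ordered by role. Most members lie close to 0 in all 6 libraries, while Car9, Adm and Pfkfb3 spread among the LNP-GFP libraries themselves.

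The transporters split. Slc16a1, which encodes the proton-linked lactate and pyruvate carrier MCT1 (chromosome 3, 104545984 to 104565778, GRCm39), was at 68.1, 78.3 and 77.1 CPM (counts scaled to library size) in the LNP-GFP libraries and at 48.8, 53.1 and 51.0 CPM in the LNP-Gsdme libraries. Every LNP-Gsdme library lay below every LNP-GFP library. It fell by 0.55 on the log2 scale (SE 0.083, 95% interval -0.75 to -0.35, adjusted p = 0.016 by the edgeR quasi-likelihood test). Slc16a3, which encodes MCT4, the lactate exporter known from strongly glycolytic cells and a HIF target, was at 597, 550 and 581 CPM in LNP-GFP and 703, 603 and 573 CPM in LNP-Gsdme. The groups overlapped (log2 fold change 0.12, adjusted p = 0.42 in the same edgeR fit), and the difference between the 2 carriers' fold changes was not tested. Per length, Slc16a1 made up 18.4, 22.0 and 20.8% of the FPKM summed over both carriers in LNP-GFP and 12.1, 14.8 and 14.96% in LNP-Gsdme, with no overlap between groups. FPKM are the deposited values per gene length and library total. The glucose transporters Slc2a1 and Slc2a3, which encode GLUT1 and GLUT3, had log2 fold changes of 0.09 and 0.34 (adjusted p 0.58 and 0.14 in the edgeR fit), and Slc2a1 made up 93.9 to 95.1% of their summed FPKM in every library.

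**Figure D2:**
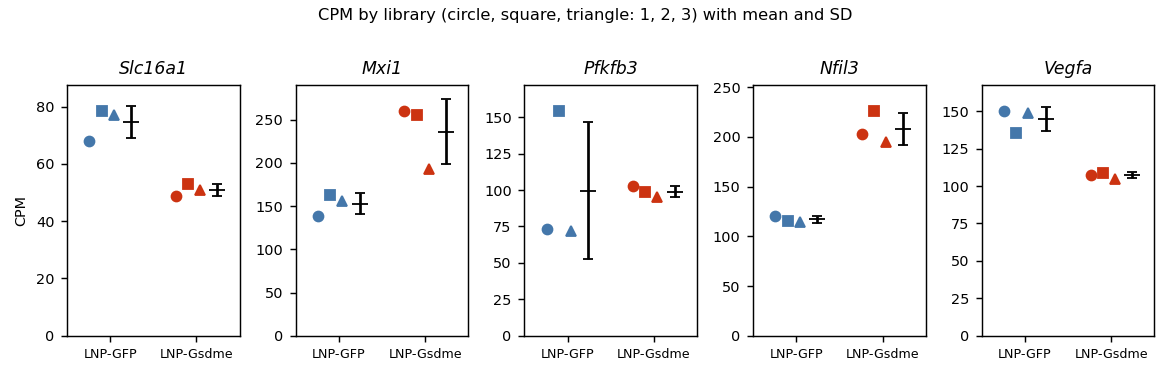
CPM in each library (circle, square and triangle for libraries 1, 2 and 3 of a group, with the mean and SD beside them) of the called members Slc16a1 and Mxi1, of Pfkfb3, and of Nfil3 and Vegfa from the wider HIF list. The groups are apart for all but Pfkfb3, where LNP-GFP 2 stands at 154 CPM above all other libraries.

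None of the 16 enzymes between hexokinase and lactate dehydrogenase passed the test, and their log2 fold changes ran from -0.38 (Pfkm) to 0.29 (Hk3) with a median of -0.13. At an unadjusted p below 0.05 there were 3 of the 16 (18.8%, beside 31.5% of tested genes). DESeq2 called Pfkp, beside Slc16a1 among the transporters, in a fit that called 3020 of the 16010 tested genes. Pkm, the pyruvate kinase of the last energy-yielding step and the most abundant enzyme by CPM, was at 2435, 2590 and 2492 CPM in LNP-GFP and 2402, 2140 and 2312 CPM in LNP-Gsdme. The LNP-Gsdme libraries were all lower, by a margin within the error of the test (log2 fold change -0.13, adjusted p = 0.28, edgeR). The groups were likewise apart and lower in LNP-Gsdme for Pgk1 (phosphoglycerate kinase, log2 fold change -0.32), Eno1 (enolase, -0.25) and Ldha (lactate dehydrogenase A, -0.09), none of which passed. With Pkm these were 4 of the 16 enzymes, beside 18.2% of tested genes. Eno1 overlapped once counts of its near-identical copy Eno1b were added. Pfkp, the platelet-type phosphofructokinase, was the only enzyme apart and higher, at 296, 276 and 277 CPM in LNP-GFP and 337, 328 and 319 CPM in LNP-Gsdme (log2 fold change 0.21, adjusted p = 0.088, edgeR). Pgam1, Tpi1 and Pfkl, which catalyse the mutase, isomerase and liver-type phosphofructokinase steps, had log2 fold changes of 0.02, 0.01 and 0.01. Their 95% intervals lay within 1.5-fold in either direction.

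The make-up of the hexokinases varied between libraries. Hk3, the hexokinase typical of myeloid cells, was at 287, 152 and 219 CPM in the LNP-GFP libraries and at 281, 274 and 246 CPM in the LNP-Gsdme libraries. Its 1.89-fold range within LNP-GFP exceeded the 1.22-fold ratio of the group means. Hk3 made up 48.2, 27.1 and 38.1% of the hexokinase FPKM in LNP-GFP and 49.1, 48.3 and 43.9% in LNP-Gsdme, with Hk2, the inducible isoform, taking most of the remainder. On the deposited FPKM the mean levels of Hk2 and Hk3 were close (38.6 and 39.9), while with lengths taken from merged annotated exons they were 44.3 and 66.1. Aldoa made up at least 98.5% of the FPKM of Aldoa and Aldoc in every library. Among phosphofructokinases Pfkp held 46.9 to 49.3% of the FPKM in LNP-GFP and 53.7, 54.4 and 48.0% in LNP-Gsdme, Pfkl 42.0 to 47.6% over the 6 libraries, and Pfkm, the muscle isoform, 3.23 to 6.65%.

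**Figure D3:**
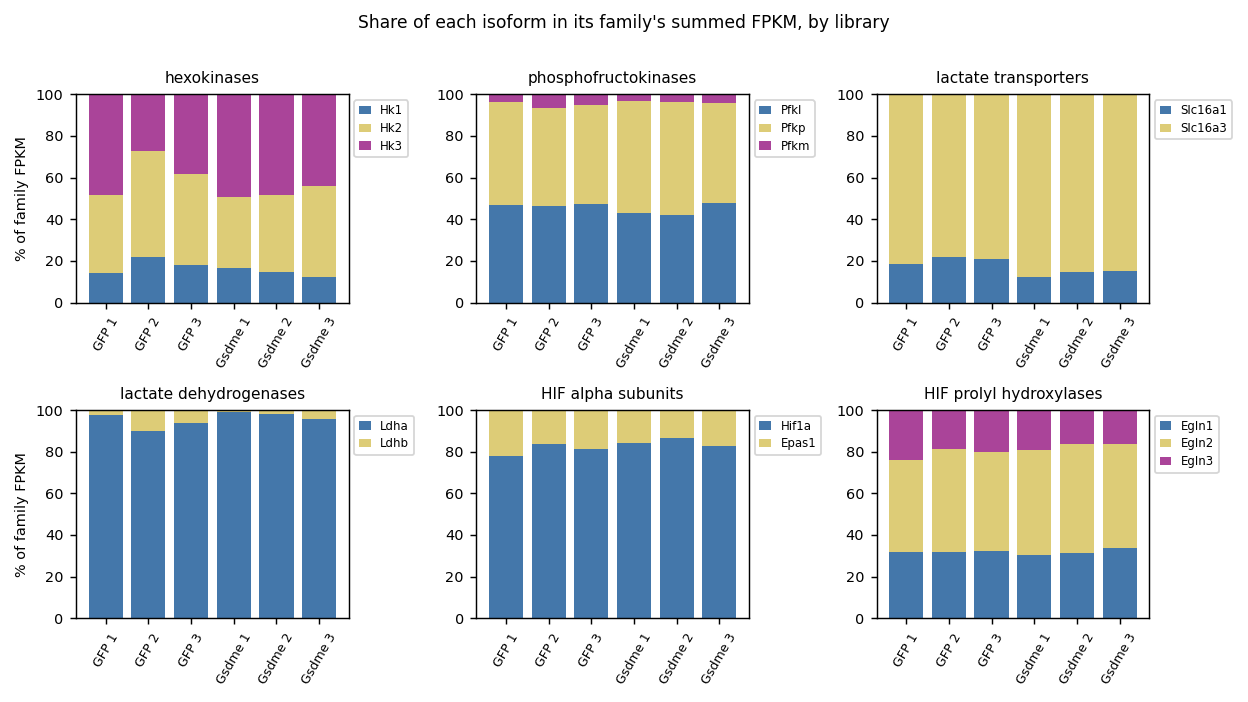
Share of each isoform in the summed deposited FPKM of its family, in percent, for the 6 libraries. The Slc16a1 share of the lactate transporters is lower in all 3 LNP-Gsdme libraries, and the Hk3 share of the hexokinases is lowest in LNP-GFP 2.

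None of the 3 enzymes that set glycolytic flux was called by edgeR or DESeq2, or had an unadjusted p below 0.05. Pfkfb3, which makes the phosphofructokinase activator fructose 2,6-bisphosphate, was at 73.0, 154 and 71.8 CPM in the LNP-GFP libraries and at 103, 98.7 and 95.2 CPM in the LNP-Gsdme libraries. LNP-GFP 2 stood above all LNP-Gsdme libraries and the other LNP-GFP libraries below them (log2 fold change -0.01, adjusted p = 0.99, edgeR). Without LNP-GFP 2 the log2 fold change was 0.46 with an adjusted p of 0.030 in the edgeR fit. Pfkfb4, a second enzyme of that kind, and Pdk1, the kinase that shuts pyruvate out of the mitochondrial dehydrogenase, had log2 fold changes of -0.11 and -0.15.

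Neither the 2 HIF subunits nor the 2 prolyl hydroxylases were called by edgeR or DESeq2, and none of the 4 had an unadjusted p below 0.05. Hif1a was at 538, 495 and 526 CPM in the LNP-GFP libraries and at 508, 497 and 484 CPM in the LNP-Gsdme libraries, with overlapping groups. Its log2 fold change was -0.07 (95% interval -0.23 to 0.10, adjusted p = 0.53, edgeR). Epas1 was at 129, 79.7 and 101 CPM in LNP-GFP and 81.3, 65.1 and 84.9 CPM in LNP-Gsdme (log2 fold change -0.42, 95% interval -0.88 to 0.04, adjusted p = 0.19, edgeR). Its groups overlapped through LNP-GFP 2. Hif1a made up 77.8 to 86.5% of the summed FPKM of both subunits over the 6 libraries. Egln1, the main HIF prolyl hydroxylase PHD2, had a log2 fold change of 0.01 (95% interval -0.18 to 0.20). Egln3, a prolyl hydroxylase that HIF itself induces, had one of -0.27 (adjusted p = 0.33, edgeR).

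Mxi1, a MYC antagonist and HIF target (chromosome 19, 53298949 to 53364241, GRCm39), was the called HIF target. It was at 139, 163 and 156 CPM in the LNP-GFP libraries and at 260, 256 and 193 CPM in the LNP-Gsdme libraries. All LNP-Gsdme libraries lay above all LNP-GFP libraries, with LNP-Gsdme 3 the lowest of them. It rose by 0.63 on the log2 scale (SE 0.13, 95% interval 0.31 to 0.95, adjusted p = 0.033, edgeR quasi-likelihood test).

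None of the other 10 HIF targets passed the edgeR test, with 3 (Bnip3l, Ero1a and P4ha2) at an unadjusted p below 0.05. With Mxi1 this is 36.4% of the 11 HIF targets, near the 31.5% of all tested genes. DESeq2, which called more genes than edgeR over all genes too, called 2 of the 10 (Ero1a and P4ha2). This is a similar share to the 3020 of 16010 tested genes that it called. Bnip3 and Bnip3l, receptors for the removal of mitochondria, had log2 fold changes of -0.03 and -0.19. Ddit4, an inhibitor of the growth kinase mTORC1, had one of -0.11 and P4ha1, a collagen prolyl hydroxylase subunit, one of 0.00. Ndrg1, a stress-induced protein and the target with the highest CPM, was at 332, 481.5 and 398.5 CPM in LNP-GFP and 384, 333 and 337 CPM in LNP-Gsdme, with overlapping groups (log2 fold change -0.20, adjusted p = 0.37, edgeR). Ero1a, an oxidase for protein disulfides in the endoplasmic reticulum, was at 223, 246 and 232 CPM in LNP-GFP and 204, 174 and 172 CPM in LNP-Gsdme. Its groups were apart (log2 fold change -0.35), and its adjusted p was 0.058 with edgeR and 0.015 with DESeq2. Ankrd37, a low-abundance HIF target, was apart in the other direction, at 3.01, 3.16 and 3.30 CPM in LNP-GFP and 4.05, 4.62 and 3.45 CPM in LNP-Gsdme (log2 fold change 0.35, adjusted p = 0.20, edgeR).

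**Figure D4:**
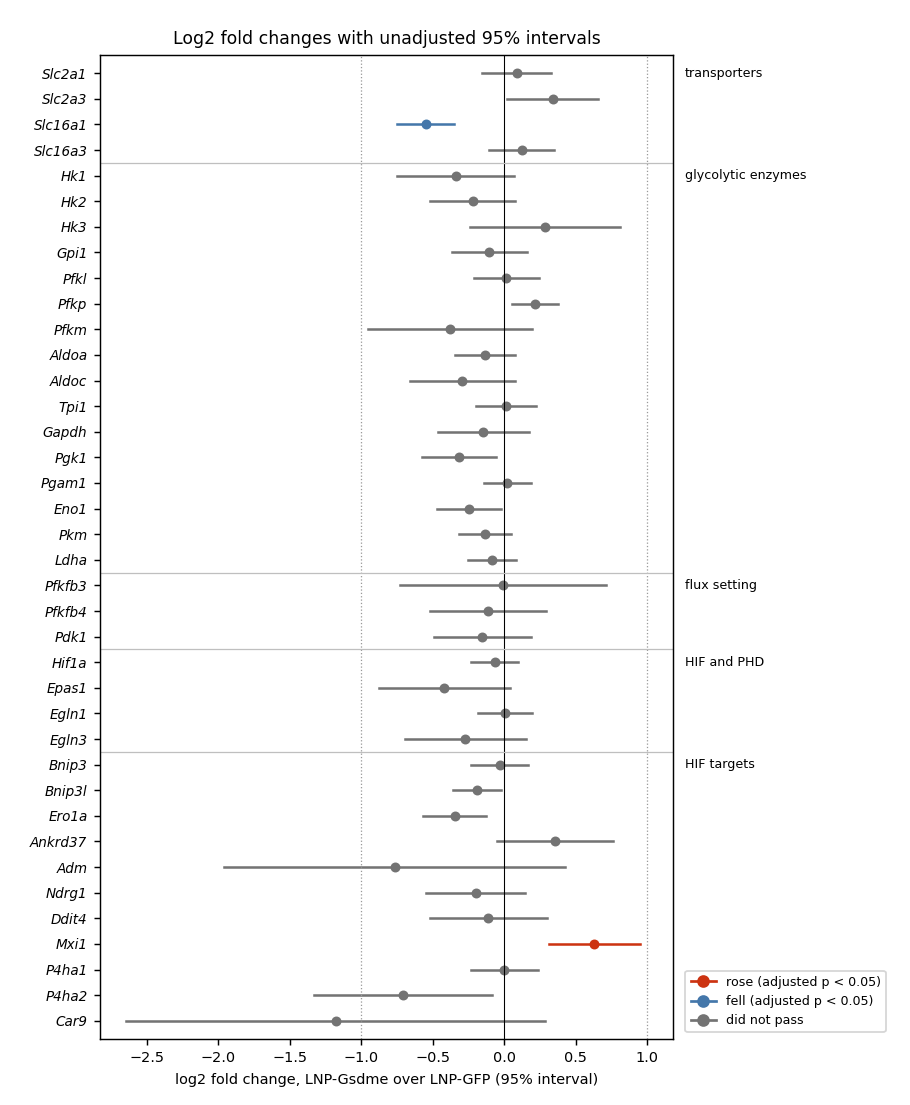
Log2 fold change of each member, LNP-Gsdme over LNP-GFP, with its unadjusted 95% interval from the edgeR fit, ordered by role; dotted lines mark 2-fold. Mxi1 (red) and Slc16a1 (blue) are the called members, and Car9 and Adm have the widest intervals.

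Set side by side, the enzymes and transporters held 1 called gene of 23 (4.35%) and the HIF regulators and targets 1 of 15 (6.67%), in opposite directions. The groups did not overlap for 3 higher members (7.89%, beside 19.6% of tested genes), namely Pfkp, Ankrd37 and Mxi1. They did not overlap for 8 lower members (21.1%, beside 18.2%), which were Slc16a1, Pgk1, Eno1, Pkm, Ldha, Bnip3l, Ero1a and P4ha2, of which Eno1 and Bnip3l overlapped once counts of their near copies were added. Both classes had a median log2 fold change below 0, at -0.11 for the enzymes and transporters and -0.19 for the HIF class, which also spread more widely (-1.18 to 0.63 beside -0.55 to 0.34). By library, relative to each gene's LNP-GFP mean on the log2 scale, the median enzyme was at -0.02, 0.04 and -0.0036 in LNP-GFP and -0.03, -0.23 and -0.04 in LNP-Gsdme. The median HIF gene was at -0.07, 0.05 and 0.02 in LNP-GFP and -0.06, -0.23 and -0.10 in LNP-Gsdme, so LNP-GFP 1 lay below LNP-Gsdme 1 for the HIF class. LNP-Gsdme 2 was the lowest library of both classes, and the difference between the classes was not tested.

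Car9, Adm and P4ha2 had the largest falls in fitted value and none passed. Car9, a cell-surface carbonic anhydrase and widely used hypoxia marker, was at 11.03, 40.6 and 23.4 CPM in the LNP-GFP libraries and at 6.35, 6.61 and 19.996 CPM in the LNP-Gsdme libraries (log2 fold change -1.18, 95% interval -2.64 to 0.28, adjusted p = 0.24, edgeR). Its 3.68-fold range within LNP-GFP exceeded the 2.27-fold ratio of the group means. Adm, the vasodilator peptide adrenomedullin, was at 5.54, 18.8 and 12.9 CPM in LNP-GFP and 6.52, 4.37 and 10.9 CPM in LNP-Gsdme, a 3.39-fold range within LNP-GFP. P4ha2, a collagen prolyl hydroxylase subunit, was at 33.1, 42.4 and 37.2 CPM in LNP-GFP and 22.98, 14.7 and 31.0 CPM in LNP-Gsdme, with the groups apart (log2 fold change -0.71, adjusted p = 0.12, edgeR). In 23 of the 38 members the range within LNP-GFP exceeded the ratio of the group means (60.5%, beside 61.5% of tested genes).

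Markers of other cells moved across the same libraries. The 8 melanoma markers (Dct and Tyrp1 the most abundant) summed to 338, 1842 and 1105 CPM in the LNP-GFP libraries and to 128, 177 and 756 CPM in the LNP-Gsdme libraries. None of the 8 was called and none was at 0 in all libraries. The 10 fibroblast markers (Col1a1 and Col3a1 the most abundant) summed to 9229, 10208 and 9695 CPM in LNP-GFP and 3099, 2308 and 5774 CPM in LNP-Gsdme, and 5 of them fell. The 5 erythroid markers, like the melanoma markers, were highest in LNP-GFP 2, at 15.2, 158 and 84.3 CPM in LNP-GFP and 8.54, 5.74 and 60.1 CPM in LNP-Gsdme. The neutrophil sum was also highest in LNP-GFP 2 among the controls (169, 422 and 291 CPM), with 438, 301 and 231 CPM in LNP-Gsdme. The endothelial sum (293 to 352 CPM in LNP-GFP and 227 to 286 CPM in LNP-Gsdme) and the dendritic cell sum (126 to 164 and 72.1 to 109 CPM) were lower without overlap, with Vwf, Xcr1 and Cd209a the markers that fell. The NK cell sum was higher without overlap (36.5 to 129 CPM in LNP-GFP and 133 to 182 CPM in LNP-Gsdme). The T cell sum overlapped (159 to 464 and 398 to 511 CPM). Apoe of the macrophage list fell and Gzma of the NK cell list rose. The 6 libraries stood in the same order for Car9, Hk2 and Pfkm as for the melanoma sum (1.83% of tested genes did), and in the same order for P4ha2 and Pgk1 as for the fibroblast sum (2.36%). The part of these cells in the values of Car9, Adm, P4ha2 and the other members was not tested, and in bulk RNA fewer cells of a type and less RNA per cell cannot be told apart. Among the monocyte markers Ly6c2 and Plac8 rose and Vcan fell, and Lyz2 was the most abundant in every library.

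**Figure D5:**
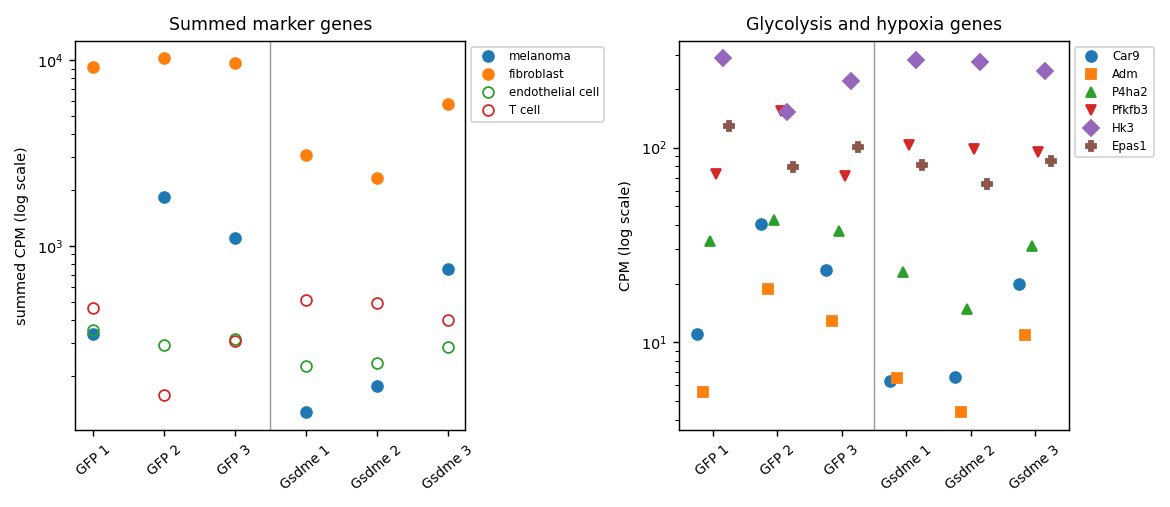
Summed CPM of marker lists (left) and CPM of 6 members (right) in each library, on log axes, with LNP-GFP libraries left of the line in each panel. The melanoma sum and Car9 are both highest in LNP-GFP 2 and lowest in LNP-Gsdme 1.

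Of 77 further genes of these pathways 69 could be tested, and 3 rose and 1 fell (5.80%, beside 11.6% of all tested genes). All 4 came from the 34 other HIF pathway genes (32 tested), which is 12.5% of them, near the 11.6% of all tested genes. In that list 12 genes had an unadjusted p below 0.05 (37.5%, beside 31.5% of all tested genes). None of the 18 tested other glycolysis genes and none of the 19 genes of pyruvate entry and the pentose phosphate route was called by edgeR, with 4 and 2 at an unadjusted p below 0.05 (22.2 and 10.5%, beside 31.5% of all tested genes). Nfil3, a leucine-zipper repressor, was at 121, 116 and 114 CPM in LNP-GFP and 203, 225 and 195 CPM in LNP-Gsdme, with the groups apart, and rose by 0.83 on the log2 scale (adjusted p = 0.0058, edgeR). Kdm4c, a histone demethylase, rose by 0.51 (adjusted p = 0.022, edgeR), from 17.6 to 19.6 CPM in LNP-GFP to 25.3 to 27.7 CPM in LNP-Gsdme. Vegfa, the angiogenic growth factor and HIF target, was at 150, 136 and 149 CPM in LNP-GFP and 108, 109 and 105 CPM in LNP-Gsdme, all lower, and fell by 0.44 on the log2 scale (adjusted p = 0.020, edgeR). Plin2, a lipid droplet coat protein named after its values were seen, rose by 0.35 (adjusted p = 0.029, edgeR).

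The calls depended on single libraries. LNP-GFP 3 lay between LNP-GFP 1 and LNP-GFP 2 in most members, in the order 1, 3, 2 for 17 (44.7%, beside 30.7% of tested genes) and 2, 3, 1 for 15 (39.5%, beside 31.2%). Whether LNP-GFP 3 is independent of the other control libraries is not known, and the p-values of Slc16a1 and Mxi1 count it as a full replicate. Without LNP-GFP 3 no member was called by edgeR, with 3 at an unadjusted p below 0.05. That fit called 88 genes in all, the fewest of the 6 fits with a library left out (88 to 2841). Calls were thus lost across all genes and not only among the members. Without LNP-Gsdme 1 or LNP-Gsdme 2 no member was called either, with 6 and 4 at an unadjusted p below 0.05 (shares over all genes not given here). Slc16a1 then had adjusted p-values of 0.10, 0.085 and 0.067 and Mxi1 0.12, 0.12 and 0.12 in the edgeR fits, and without LNP-GFP 2 Mxi1 had 0.056. The fold changes moved little, from -0.60 to -0.50 for Slc16a1 and from 0.56 to 0.76 for Mxi1 over the 6 fits with a library left out. None of the 4 further genes was called without LNP-GFP 3, where Nfil3 had an adjusted p of 0.0504 (edgeR).

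Several members have near-identical copies listed apart in the table, and the sources used here do not tell how reads that match both were counted. The retrogene and pseudogene copies of Pgk1 held 73.4 to 79.9% as many counts as Pgk1 itself, Eno1b 55.3 to 88.6% as many as Eno1, Bnip3l-ps 50.9 to 58.8% as many as Bnip3l, and those of Pgam1 25.2 to 27.4%. Levels of these genes are therefore uncertain. With the copies added, no call changed, and the log2 fold change of Eno1 went from -0.25 to -0.13. The separation of the groups was then lost for Eno1 (755, 826 and 821 CPM in LNP-GFP and 841, 628 and 721 CPM in LNP-Gsdme) and for Bnip3l (lowest LNP-GFP library 114.3 CPM, highest LNP-Gsdme library 114.7 CPM), while it was kept for Pgk1 and Ldha. Gapdh, the dehydrogenase often used as a reference gene, was listed at 63.3 to 88.7 CPM, while Pgk1, the next enzyme of the pathway, was at 500.0 to 753 CPM. Per length the mean Gapdh level was 8.92 FPKM and that of Pgk1 207 FPKM.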

How the data were processed

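Whole-number gene counts and FPKM were read from the table the authors deposited, per the file headers. The build was GRCm39 per the submitters' processing notes, while the sources used here name no aligner, counter, strand setting or annotation. The gene lengths implied by the deposited FPKM values exceeded the span of the gene for 991 of 12701 genes with over 50 counts (7.80%), 4 members among them, so levels between genes were also computed with merged exon lengths (GENCODE vM21, a choice made after seeing the data). Library totals ran from 20233559 to 22932095 counts for LNP-GFP and from 15991826 to 18751784 for LNP-Gsdme, so 1 CPM was 16.0 to 22.9 counts and counting error is large near it.

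The tests were run with edgeR 4.0.16 under R 4.3.3 (filterByExpr by group, 16010 genes kept, TMM factors 0.980 to 1.04, robust quasi-likelihood test, two-sided, biological coefficient of variation 0.193). Adjustment was by Benjamini-Hochberg over all tested genes, with calls below 0.05, and CPM use the TMM-scaled totals of tested genes. Intervals are unadjusted 95% intervals, and the test was checked on simulated data. Alternatives were DESeq2 1.42.0, limma-voom (limma 3.58.1), other scalings and low-count filters, edgeR without robust fitting, a replicate block and each library left out. Adding near copies, and running these alternatives on the further pathway genes, were chosen after seeing the data.

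The members and lists were chosen with earlier results of these data known. Values in every library were given for called members, for Hif1a and Epas1, for the member of each role with the highest mean CPM and for up to 3 called genes with the smallest p per further list. Other genes with such values were chosen after their values were seen. Ero1a was listed as Ero1l and matched through that symbol, and Aldoa has more than 1 row, of which that with more counts was used. Values of some single marker genes are left out here.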

Additional observations from a re-analysis of the deposited data

How the results depend on the processing

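Over 15 alternatives, and with near copies added for 8 members, the members gave 578 values, of which 536 kept their direction and side of the threshold. With their direction kept, 9 lost the call and 6 gained it. Another 27 changed sign, among them Pfkfb3 without LNP-GFP 2, which also became a call (adjusted p = 0.030, edgeR). Sign changes occurred in 9 members. Of the other 29 members, 21 had a log2 fold change that moved by over 1.5 times under some alternative, as for Ndrg1 (-0.31 to -0.05), Epas1 (-0.57 to -0.22), Hk3 (0.085 to 0.54), Adm (-1.18 to -0.32) and Car9 (-1.94 to -0.63). With DESeq2, 3020 of the 16010 tested genes were called, beside 1859 with edgeR. Among them were 5 members (Slc16a1, Mxi1, Pfkp, Ero1a and P4ha2), 2 enzymes and transporters, 3 HIF regulators and targets and 12 further pathway genes. Upper-quartile scaling called 2 HIF genes, the second being Ero1a, and its count over all genes is not given here. Deviations from the group means had correlations of 0.21, -0.24 and 0.03 for equal replicate numbers and -0.33 to 0.32 for unequal ones. With so few libraries these cannot show whether the samples were paired. With a replicate block 155 genes, 0 members (0 enzymes and transporters, 0 HIF genes) and 1 further pathway gene were called. Leaving out 1 library at a time gave 88 to 2841 genes, 0 to 3 members, 0 to 2 enzymes and transporters, 0 to 2 HIF genes and 0 to 9 further pathway genes. The median log2 fold change then ran from -0.15 to -0.04 for enzymes and transporters and from -0.22 to -0.094 for HIF genes, the last without LNP-GFP 2. The cause was not tested.

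Sign changes touched members whose log2 fold change in the main fit lay between -0.11 (Pfkfb4 and Ddit4) and 0.02 (Pgam1). The lower end is as large as the median of the enzymes and transporters. Pfkfb3 reached 0.46 in 1 alternative. P4ha1 had -0.0027 with RLE factors and with DESeq2, -0.043 with upper-quartile factors and -0.0033 with no filter. Upper-quartile factors, which moved the median of all genes to -0.05, gave -0.030 for Pfkl, -0.032 for Tpi1, -0.024 for Pgam1 and -0.037 for Egln1. Pfkfb3 had 0.022 with library size only, 0.087 with limma-voom and 0.090 with the replicate block. With 1 library left out, the values ran from -0.086 to 0.027 for Bnip3, -0.19 to 0.46 for Pfkfb3, -0.25 to 0.036 for Pfkfb4, -0.044 to 0.067 for Egln1, -0.27 to 0.065 for Ddit4, -0.067 to 0.087 for P4ha1, -0.027 to 0.076 for Tpi1, -0.081 to 0.081 for Pfkl and -0.0040 to 0.063 for Pgam1. With merged exon lengths the Slc16a1 share of the lactate transporters ran from 12.1 to 14.6% for LNP-GFP and from 7.70 to 9.66% for LNP-Gsdme. Ankrd37 and Pfkm had few counts (66 to 74 and 100 to 249 per library), and the part of depth in their spread was not tested.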

Other observations

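Ldhb, the lactate dehydrogenase subunit that favours pyruvate formation, was at 7.02, 34.03 and 21.1 CPM in the LNP-GFP libraries and at 2.98, 4.99 and 13.5 CPM in the LNP-Gsdme libraries, with overlapping groups and an adjusted p of 0.20 (edgeR). Its share of the summed FPKM of Ldha and Ldhb was 2.17, 9.83 and 6.33% in LNP-GFP and 0.978, 1.76 and 4.18% in LNP-Gsdme. Gpd1, the cytosolic glycerol-3-phosphate dehydrogenase, was at 2.70, 16.03 and 10.1 CPM in LNP-GFP and 1.63, 1.497 and 5.15 CPM in LNP-Gsdme. Both were highest in LNP-GFP 2, as the melanoma marker sum was, and the part of tumour cells in them was not tested.

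Hmox1, a heme-degrading enzyme that HIF and oxidative stress induce, was at 965, 1742 and 1424 CPM in LNP-GFP and 854, 664 and 784 CPM in LNP-Gsdme. The groups were apart, and the adjusted p was 0.056 (edgeR). Vhl, which encodes the ubiquitin ligase subunit that removes hydroxylated HIF, was at 29.4, 33.1 and 27.4 CPM in LNP-GFP and 35.6, 63.6 and 47.9 CPM in LNP-Gsdme, again apart, with an adjusted p of 0.073 (edgeR). Aldoart1, a copy of the aldolase gene Aldoa, had 269, 339 and 266 counts in LNP-GFP 1 to 3 and 9, 164 and 256 counts in LNP-Gsdme 1 to 3, while Aldoa varied between 902.5 and 1126 CPM. These genes were named after their values were seen.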
